A study of Homo sapiens with 6 samples.

Results

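The genes described here are 10 that are switched on when the RAS-ERK pathway signals: the MAPK phosphatases DUSP5 and DUSP6, the Sprouty inhibitors SPRY1, SPRY2 and SPRY4, the Sprouty-related inhibitors SPRED1 and SPRED2, and the PEA3 transcription factors ETV1, ETV4 and ETV5. They were chosen by name, with earlier results of these data known. Each of the 10 had 1 row of its own among the 33297 rows of the deposited table. The cells were MDA-MB-231, an established line from a human triple-negative breast tumour. There were 3 groups of 2 independent clones, with 1 array a clone: a control hairpin, and hairpins 162 and 159 directed at TIP-1, here called shRNA 162 and shRNA 159. TIP-1, encoded by TAX1BP3, is a small PDZ-domain protein, and all 6 cultures had the same parent line, medium and overnight culture after reseeding. With 2 clones a hairpin, effects of the hairpin, of the loss of TIP-1 and of the choice of clone cannot be told apart.

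ERK is the last kinase of a chain that runs from growth factor receptors through RAS, RAF and MEK. Active ERK raises the transcripts of its own inhibitors, so their levels are often read as a gauge of pathway output: Sprouty and SPRED proteins act at the level of RAS and RAF, while DUSP5 and DUSP6 remove phosphate from ERK itself in the nucleus and the cytoplasm. ETV1, ETV4 and ETV5 form the PEA3 subfamily of ETS factors, which are induced by the same signal, bind DNA with a GGAA core and are held down by the repressor CIC when the pathway is quiet.

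The targeted transcript, TAX1BP3, was lower in all 4 shRNA clones: its row, shared with a readthrough transcript, changed by -1.67 (log2) with shRNA 162 and by -1.20 with shRNA 159, at limma adjusted p of 4.37e-05 and 0.00034. Of the 6 markers of the labelled line 0 were below the lower quartile of the arrays. Of the 8 luminal markers, 3 (ESR1, PGR and CDH1) were below it on every array, while KRT8 and KRT18 were bright, at 12.30 and 12.35 in the control clones. FN1 of the first list and KRT8 and EPCAM of the second passed in at least 1 comparison, and their part in the results was not tested. Of the leukocyte, fibroblast and endothelial markers, 8 of 13 were below that quartile on all arrays, and PDGFRB was the 1 of these that passed in any comparison. The rows of the 10 genes lay between the 59.6 and the 90.6 percentile of the tested rows of an array, so none was dim.

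Values are log2 signals, and a difference of 1 is a 2-fold change in signal. A gene "passed" at a limma adjusted p under 0.05 over the 21214 tested rows, and "rose" or "fell" is used of these alone. In the average of both hairpins against control, 3 of the 10 genes passed (SPRY4 and ETV4 rose, ETV5 fell), beside 4.62% of all rows. The same 3 passed with shRNA 162 against control, beside 9.52% of all rows. Of all rows, 639 rose against 341 that fell for both hairpins, and 1247 against 772 with shRNA 162. Those splits became 549 against 465 and 1081 against 1065 once the arrays were quantile normalized. With shRNA 159 against control 0 of 10 passed with limma, beside 2.53% of all rows. An unadjusted p under 0.05 was found for 5 of the 10, beside 2995 of all 21214 rows. When the brighter rows alone were tested 1 passed, beside 946 of 10607 rows, and with a variance trend 2 passed, beside 1137 of 21214. Between the hairpins, ETV5 was higher and SPRY1 lower with shRNA 159, 2 of 10 beside 8.65% of all rows. The comparisons with control share the same 2 control clones, so they are not independent of each other.

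The median change of the 10 genes was 0.17 for both hairpins together, 0.175 with shRNA 162 and 0.10 with shRNA 159, beside medians near 0 over all rows (0.0007, 0.02 and -0.01). Their changes ran from -1.13 to 0.45 with shRNA 162 and from -0.26 to 0.32 with shRNA 159. The clones of the 2 groups did not overlap for 10 of 10 genes with shRNA 162 against control, for 7 of 10 with shRNA 159, for 6 of 10 with all 4 shRNA clones against control and for 9 of 10 between the hairpins. Over all rows those shares were 56.6%, 42.4%, 21.9% and 51.9%. Exact permutation tests of single genes cannot go below p = 0.333 with 2 clones against 2 or below 0.0667 with 4 against 2, so the tests given are those of the limma fit.

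**Figure D1:**
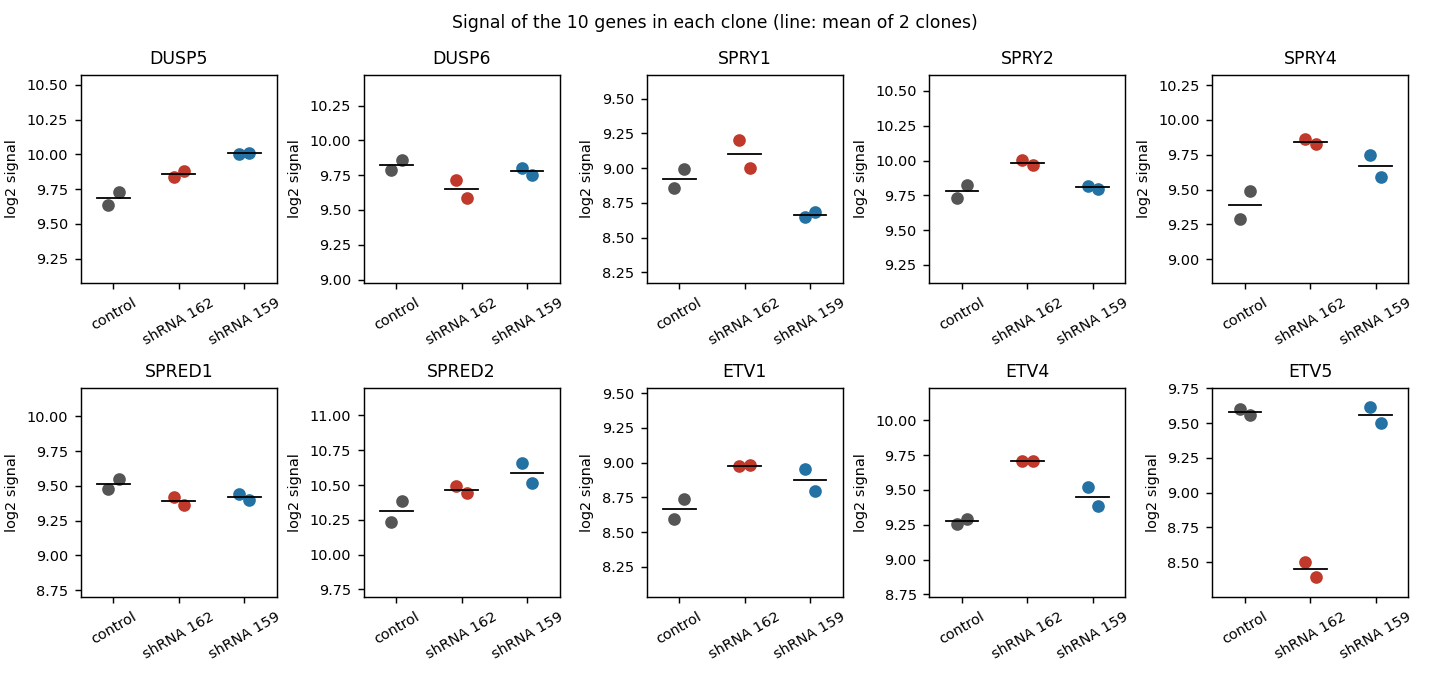
Log2 signal (vertical axis, the same span in every panel) of the 10 genes in each clone; points are clones, lines are means of 2 clones, and colours mark control, shRNA 162 and shRNA 159. ETV5 stands at 8.50 and 8.39 in the shRNA 162 clones and between 9.50 and 9.61 in the other 4 clones, while the other 9 genes differ by at most 0.57 over the 6 arrays.

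RefSeq promoter windows (GRCh38.p14, from 250 bases before to 50 after a transcript start) were held for 7 of the 10 genes, as 16 windows; DUSP5, ETV4 and ETV5 had none. Each window was searched on both strands for the CIC octamer (TGAATGAA or TGAATGGA), the ETS site CCGGAAGT, the PEA3 hexamer AGGAAG and the AP-1 site TGAGTCA, whose reverse complement is TGACTCA. The octamer was found in 1 of the 16 windows, of ETV1, against 2.63% of all 35116 windows, and the ETS site in 0 against 4.14%. The hexamer was found in 10 of 16 against 33.6%, and the AP-1 site in 1, of SPRED2, against 4.95%. At least 1 window held the hexamer in 6 of the 7 genes, SPRY4 being the exception, against 38.1% of all genes with a window. The gene shares are not like for like, since the 7 genes held 16 windows and all 27305 genes held 35116. Windows of 1 gene can overlap, and a match is a match of letters, not a measured binding site.

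The windows below are those of members with the clearest values that had one, 5′ to 3′ on the strand of the gene, with the matched motif in capitals. ETV1 (chr7:13991376-13991675, minus strand) is shown for its CIC octamer, 125 bases before the start, SPRY4 (chr5:142324198-142324497, minus strand) because it rose and holds none of the 4 motifs, SPRY1 (chr4:123398136-123398435, plus strand) because it differed between the hairpins, and SPRED2 (chr2:65432550-65432849, minus strand) for its 3 hexamers.
ETV1: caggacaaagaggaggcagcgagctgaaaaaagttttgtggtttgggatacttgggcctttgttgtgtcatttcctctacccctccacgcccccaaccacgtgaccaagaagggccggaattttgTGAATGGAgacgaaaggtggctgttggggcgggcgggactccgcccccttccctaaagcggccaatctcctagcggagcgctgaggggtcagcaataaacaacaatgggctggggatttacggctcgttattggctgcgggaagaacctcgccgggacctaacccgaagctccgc
SPRY4: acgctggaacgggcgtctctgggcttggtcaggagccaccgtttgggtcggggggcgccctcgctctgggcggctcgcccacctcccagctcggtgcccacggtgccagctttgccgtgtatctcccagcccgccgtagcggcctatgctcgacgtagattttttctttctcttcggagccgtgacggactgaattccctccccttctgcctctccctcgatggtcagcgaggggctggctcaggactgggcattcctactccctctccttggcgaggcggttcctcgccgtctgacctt
SPRY1: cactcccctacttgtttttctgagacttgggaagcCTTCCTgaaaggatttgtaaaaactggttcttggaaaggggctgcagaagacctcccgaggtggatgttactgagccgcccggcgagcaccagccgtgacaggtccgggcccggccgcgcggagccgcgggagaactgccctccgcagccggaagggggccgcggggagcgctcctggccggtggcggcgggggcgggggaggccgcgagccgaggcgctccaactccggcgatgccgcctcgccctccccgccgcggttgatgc
SPRED2: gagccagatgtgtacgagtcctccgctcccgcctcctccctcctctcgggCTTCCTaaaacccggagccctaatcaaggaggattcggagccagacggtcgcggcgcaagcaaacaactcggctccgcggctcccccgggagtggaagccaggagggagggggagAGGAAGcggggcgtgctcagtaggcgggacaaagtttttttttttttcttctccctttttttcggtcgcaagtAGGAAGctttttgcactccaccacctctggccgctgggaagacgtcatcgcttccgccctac

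Among the PEA3 factors, ETV5 showed the one change beyond 2-fold. ETV5 read 9.60 and 9.56 in the control clones, 8.50 and 8.39 with shRNA 162, and 9.61 and 9.50 with shRNA 159. Both shRNA 162 clones lay below every other clone, and the shRNA 159 clones spanned the control clones. With shRNA 162 ETV5 fell by 1.13, to 45.6% of the control signal (SE 0.08, limma adjusted p = 0.000313). With shRNA 159 the change was -0.02 (95% interval -0.21 to 0.17, limma adjusted p = 0.934). The hairpins differed by 1.11 (SE 0.08, limma adjusted p = 0.000291), with ETV5 2.16-fold higher in the shRNA 159 clones.

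In the average of both hairpins the change of ETV5, -0.58 (SE 0.07, limma adjusted p = 0.00384), lies between the values of the hairpins, and the 4 shRNA clones overlap the control clones. The averaged call was lost without control clone 1 (adjusted p = 0.0609), with the 4 shRNA clones as 1 group (0.59) and with the hairpin as a random block (0.762). With shRNA 162 alone and between the hairpins, ETV5 passed in all 6 leave-one-out fits and all 6 other fits, with a change against control of -1.19 to -1.08 over the leave-one-out fits.

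ETV4 went the other way. It read 9.26 and 9.29 in the control clones, 9.71 and 9.71 with shRNA 162, and 9.52 and 9.39 with shRNA 159, so that the 3 groups did not overlap, with shRNA 159 in the middle. ETV4 rose by 0.43 with shRNA 162 (SE 0.08, 1.35-fold, limma adjusted p = 0.0139) and by 0.30 in the average of both hairpins (SE 0.07, limma adjusted p = 0.0461). With shRNA 159 alone the change was 0.18 (95% interval -0.004 to 0.36, limma adjusted p = 0.365), and the difference between the hairpins was -0.25 (limma adjusted p = 0.0882), which passed among the brighter rows (0.0235) and with a variance trend (0.0253). The call with shRNA 162 was lost without control clone 1 (0.094) or 2 (0.0748) and without shRNA 162 clone 1 (0.0797) or 2 (0.0891), with changes of 0.41 to 0.45. The averaged call was kept in 1 of 6 leave-one-out fits, the one without shRNA 159 clone 2, with adjusted p between 0.0323 and 0.239, and in 2 of 7 other fits (0.0514 with a replicate block).

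ETV1, the third factor, read 8.59 and 8.74 in the control clones, 8.98 and 8.98 with shRNA 162, and 8.96 and 8.79 with shRNA 159. All 4 shRNA clones lay above both control clones. The changes of 0.31 with shRNA 162 (95% interval 0.11 to 0.52, limma adjusted p = 0.0651), 0.21 with shRNA 159 (0.01 to 0.41, adjusted p = 0.341) and 0.26 on average (adjusted p = 0.106) did not pass. With shRNA 162 ETV1 passed when the brighter rows alone were tested (adjusted p = 0.0146), with a variance trend (0.0186) and with the compared arrays alone (0.0466). Leaving out either shRNA 159 clone gives that last fit again. Leaving out a control clone, the change with shRNA 162 was 0.24 without clone 1 and 0.38 without clone 2. The hairpins differed by -0.10 (95% interval -0.31 to 0.10). So with shRNA 162 the PEA3 factors did not share a direction: ETV5 fell, ETV4 rose and ETV1 was 0.31 higher without passing.

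The gene order of RefSeq (GRCh38.p14) was used to set ETV5 beside its neighbours on chromosome 3. With shRNA 162 all 10 of the nearest measured genes had a negative change, from -0.10 (DGKG) to -0.59 (IGF2BP2) with a median of -0.30, and 3 of them fell: IGF2BP2, an RNA-binding protein (limma adjusted p = 0.0114), the adjoining NMRAL2P (-0.46, 0.0101) and TBCCD1 (-0.59, 0.00293). The change of ETV5, -1.13, lay outside the range of these neighbours. With shRNA 159 the neighbours ran from -0.17 to 0.53 and 0 of 10 passed with limma (1 at an unadjusted p under 0.05). Between the hairpins all 10 were higher with shRNA 159, and 5 passed, LIPH at 0.98 among them (limma adjusted p = 0.00669). The part of chromosomal position in the ETV5 change was not tested.

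The neighbours of the other members that passed in a comparison were viewed in the same way. Around SPRY4 on chromosome 5, 5 of 10 neighbours were higher and 5 lower with shRNA 162. The 1 that passed was the adjoining FGF1, which fell by 0.93 while SPRY4 rose. Around ETV4 on chromosome 17, DUSP3, a small phosphatase that also acts on ERK, fell by 0.39 with shRNA 162 (limma adjusted p = 0.0163), and the other 9 did not pass, although 8 of 10 were higher, as ETV4 was (4 of 10 with shRNA 159). Around SPRY1 on chromosome 4, 8 of 10 neighbours were higher with shRNA 162 and 7 of 10 lower with shRNA 159 than with shRNA 162, the directions of SPRY1. With limma 0 of 10 neighbours passed in any of the 4 comparisons. Counting SPRY1 itself, 2, 2 and 3 genes had an unadjusted limma p under 0.05 with shRNA 162, with shRNA 159 and between the hairpins. SPRY1 was among them with shRNA 159 (0.0231) and between the hairpins (0.00147).

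**Figure D2:**
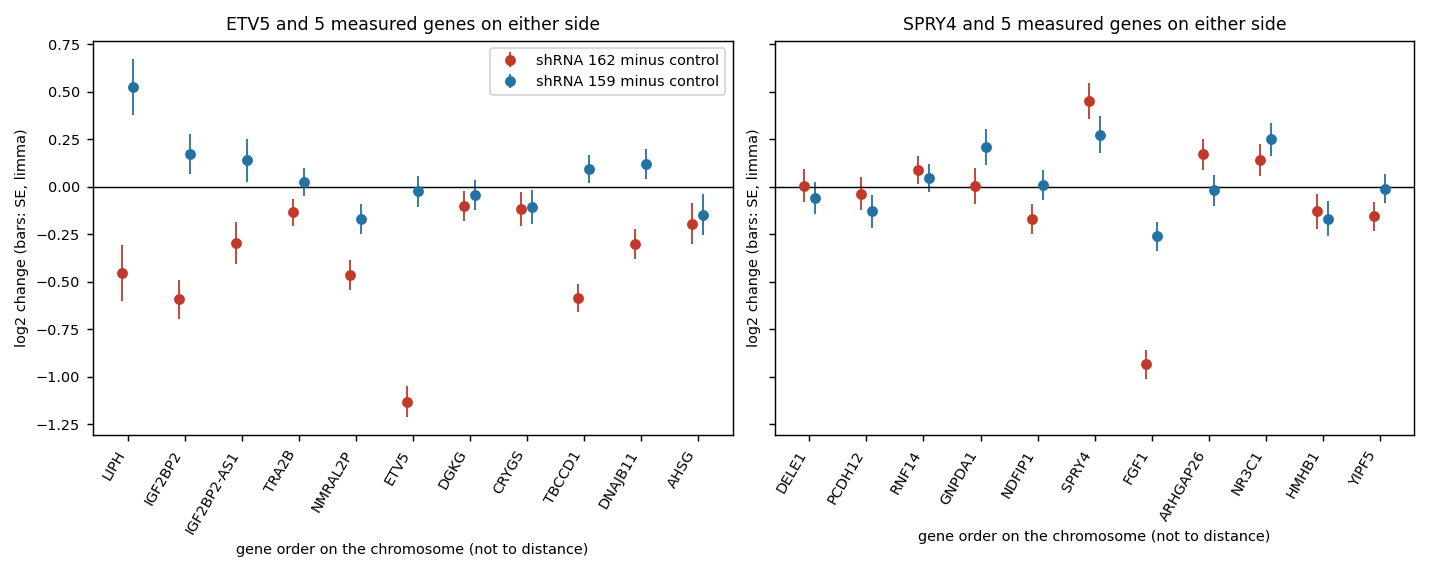
Log2 change from control (vertical axis, bars are SE of the limma fit, n = 2 clones a group) for ETV5 and SPRY4 and the 5 measured genes on either side of each, in chromosomal order and not to distance; red is shRNA 162 and blue shRNA 159. With shRNA 162 ETV5 is at -1.13 among neighbours from -0.59 to -0.10, and SPRY4 at 0.45 stands beside FGF1 at -0.93.

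Of the Sprouty genes, SPRY4 rose. It read 9.29 and 9.49 in the control clones, 9.86 and 9.83 with shRNA 162, and 9.75 and 9.59 with shRNA 159. All 4 shRNA clones were above both control clones, which themselves lay 0.20 apart. SPRY4 rose by 0.45 with shRNA 162 (SE 0.10, 1.37-fold, limma adjusted p = 0.0236) and by 0.36 in the average of both hairpins (SE 0.08, 1.29-fold, limma adjusted p = 0.0473). With shRNA 159 alone it was 0.27 higher (95% interval 0.06 to 0.49, limma adjusted p = 0.231), and the difference between the hairpins was -0.18 (95% interval -0.40 to 0.04). The call with shRNA 162 was lost without control clone 1 (0.35, adjusted p = 0.147) and without shRNA 162 clone 1 (0.116) or 2 (0.106). The averaged call was kept in 1 of 6 leave-one-out fits, the one without shRNA 159 clone 2, with adjusted p between 0.0372 and 0.286.

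SPRY1 was the one Sprouty gene that differed between the hairpins. It read 8.86 and 8.99 in the control clones, 9.20 and 9.00 with shRNA 162, and 8.65 and 8.68 with shRNA 159. The shRNA 159 clones were the lowest of the 6, and the shRNA 162 clones lay just above the controls. SPRY1 was lower with shRNA 159 than with shRNA 162, by -0.44 (SE 0.09, limma adjusted p = 0.0264). Against control neither the change of 0.18 with shRNA 162 (limma adjusted p = 0.289) nor that of -0.26 with shRNA 159 (limma adjusted p = 0.249) passed. The difference between the hairpins no longer passed without shRNA 159 clone 1 (adjusted p = 0.0817) or 2 (0.0665), without shRNA 162 clone 1 (-0.34, 0.169), or with all rows tested (0.102).

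SPRY2 read 9.73 and 9.82 in the control clones, 10.00 and 9.97 with shRNA 162, and 9.82 and 9.79 with shRNA 159. The shRNA 162 clones were the highest, and the shRNA 159 clones overlapped the controls. Its changes were 0.21 with shRNA 162 (95% interval 0.03 to 0.38, limma adjusted p = 0.133) and 0.03 with shRNA 159 (-0.14 to 0.20), and neither passed. The brighter rows alone (0.0392) and a variance trend (0.044) brought the SPRY2 change with shRNA 162 past the threshold.

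SPRED proteins pair a Sprouty domain with an EVH1 domain and bring the RAS inhibitor neurofibromin to the membrane. SPRED2 read 10.24 and 10.38 in the control clones, 10.49 and 10.44 with shRNA 162, and 10.66 and 10.52 with shRNA 159, so that all 4 shRNA clones were higher than both controls. The change was 0.16 with shRNA 162 (limma adjusted p = 0.317) and 0.28 with shRNA 159 (95% interval 0.08 to 0.48, limma adjusted p = 0.186), and its average of 0.22 passed among the brighter rows (0.0476) and with a variance trend (0.0301) but not over all tested rows (0.161). SPRED1 was lower in all 4 shRNA clones, at 9.36 to 9.44 against 9.48 and 9.55. Its average change was -0.11 (95% interval -0.26 to 0.04, limma adjusted p = 0.401).

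DUSP5, the nuclear ERK phosphatase, was highest with shRNA 159. It read 9.64 and 9.73 in the control clones, 9.83 and 9.88 with shRNA 162, and 10.01 and 10.01 with shRNA 159, with no overlap between the 3 groups. The change was 0.32 with shRNA 159 (95% interval 0.15 to 0.50, limma adjusted p = 0.076), 0.17 with shRNA 162 (adjusted p = 0.198) and 0.25 on average (adjusted p = 0.0777). With shRNA 159 it passed among the brighter rows (0.013) and with a variance trend (0.00711). DUSP6, the cytoplasmic phosphatase, read 9.79 and 9.86 in the control clones, 9.72 and 9.59 with shRNA 162, and 9.80 and 9.75 with shRNA 159. The shRNA 162 clones were the lowest, and its changes of -0.17 (95% interval -0.36 to 0.015) and -0.05 (-0.23 to 0.14) did not pass (limma adjusted p = 0.236 and 0.851).

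**Figure D3:**
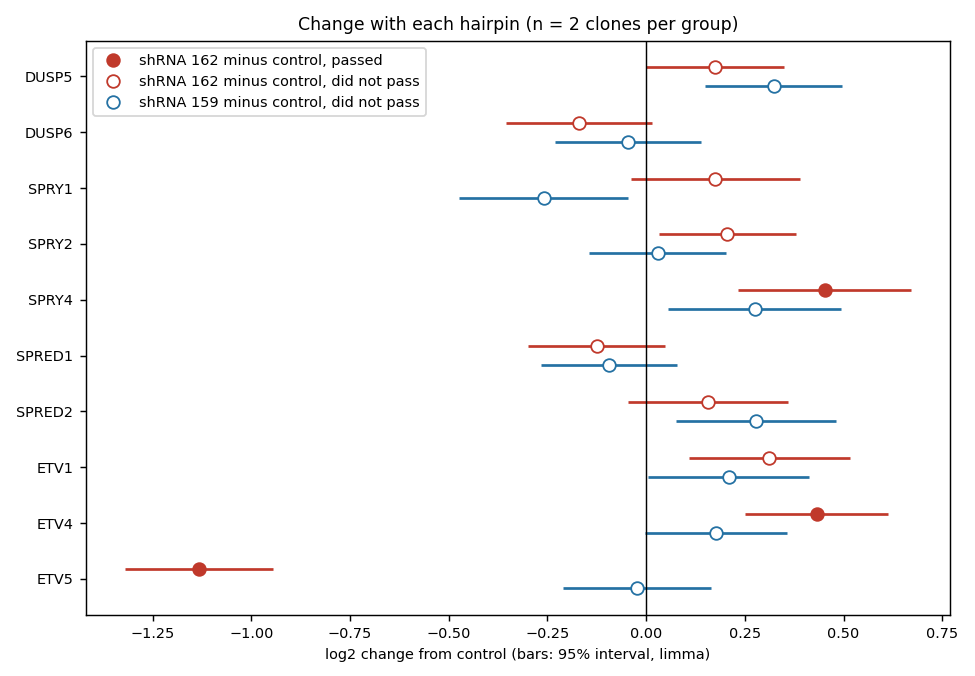
Log2 change from control (horizontal axis) of the 10 genes with shRNA 162 (red) and shRNA 159 (blue); points are differences of means of 2 clones, bars are 95% intervals of the limma fit, and filled points passed at an adjusted p under 0.05. With shRNA 162 SPRY4 (0.45) and ETV4 (0.43) lie to the right and ETV5 (-1.13) to the left, and no blue point is filled.

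The rest of the pathway was read through 7 lists of 173 genes, 157 of them with a row of their own. The lists, like the members, were chosen with earlier results of these data known. Among 25 other ERK pathway inhibitors and MAPK phosphatases, 4 rose and 1 fell with shRNA 162 (20%, beside 9.52% of all rows). Fewer passed when any 1 control or shRNA 162 clone was left out. With shRNA 159, 0 passed with limma and 6 had an unadjusted p under 0.05, beside 2995 of all 21214 rows. DUSP16 rose by 0.71 (limma adjusted p = 0.00368) and DUSP10 by 0.62 (limma adjusted p = 0.00272), both phosphatases that act mainly on JNK and p38. NF1, the RAS inhibitor neurofibromin, rose by 0.53 (limma adjusted p = 0.0144). IL17RD, an inhibitor of FGF receptor signalling that ERK induces, fell by 0.42 (limma adjusted p = 0.0224). DUSP10 was 0.52 lower with shRNA 159 than with shRNA 162 (a difference of -0.52, limma adjusted p = 0.00554). DUSP16 and DUSP10 kept their calls with shRNA 162 in all 6 leave-one-out fits, and NF1 and IL17RD in 2 of 6 each, those without a shRNA 159 clone (adjusted p up to 0.0965 and 0.142 in the others).

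Of 32 other ERK response genes, 4 rose and 4 fell with shRNA 162 (25%, beside 9.52% of all rows), fewer when any 1 control or shRNA 162 clone was left out. With shRNA 159, 1 rose and 1 fell (6.25%, beside 2.53%). The median changes were 0.04 and 0.01. MYC rose by 0.59 with shRNA 162 (limma adjusted p = 0.00434), and TGFA, a ligand of the EGF receptor, fell by 0.73 (limma adjusted p = 0.00333). The receptor EPHA4 fell with both hairpins, by 0.54 with shRNA 162 (limma adjusted p = 0.00537, 0.0539 without control clone 1) and by 0.68 with shRNA 159 (limma adjusted p = 0.00355). PLAU, the urokinase plasminogen activator, rose by 0.47 with shRNA 159 (limma adjusted p = 0.0287) and kept that call in 2 of 6 leave-one-out fits, those without a shRNA 162 clone (adjusted p up to 0.175 in the others).

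Upstream, 2 of 31 receptors and ligands rose and 3 fell with shRNA 162, 16.1% beside 9.52% of all rows. Fewer passed when any 1 control or shRNA 162 clone was left out. With shRNA 159, 0 passed with limma and 5 had an unadjusted p under 0.05, beside 2995 of all 21214 rows. NRG1, a ligand of ERBB receptors, rose by 1.25 (SE 0.08, limma adjusted p = 0.000136) and was 1.11 lower with shRNA 159 than with shRNA 162 (a difference of -1.11, limma adjusted p = 0.000257). The ligands FGF1 (-0.93, limma adjusted p = 0.00043), PDGFA (-0.62, 0.00843) and FGF5 (-0.55, 0.00824) fell with shRNA 162. NRG1 and FGF1 passed in all 6 leave-one-out fits, while PDGFA was lost without either control clone or shRNA 162 clone 2 (adjusted p up to 0.0637) and FGF5 without control clone 2 or either shRNA 162 clone (up to 0.0684). In the cascade from RAS to ERK, 1 of 25 genes rose and 1 fell with shRNA 162 (RPS6KA2 by 0.35 and HRAS at -0.32), 8% beside 9.52% of all rows. RPS6KA2 was low in the control clones, at a mean of 7.30 beside array medians of 7.37 to 7.44. With shRNA 159, 1 rose (SOS1 by 0.54), 4% beside 2.53%. In the average of both hairpins 0 passed with limma and 6 had an unadjusted p under 0.05, beside 4192 of all 21214 rows. RPS6KA2 and HRAS were lost without any 1 of the 4 clones compared (adjusted p up to 0.198 and 0.201), and SOS1 without either control clone or shRNA 159 clone 1 (up to 0.176).

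Of 24 ETS factors outside the PEA3 group, GABPA rose by 0.41 and FEV fell by 0.41 with shRNA 162 (limma adjusted p = 0.0183 and 0.027). That was 8.33% of the list, beside 9.52% of all rows. With shRNA 159, 0 passed with limma and 2 had an unadjusted p under 0.05, beside 2995 of all 21214 rows. GABPA was lost without control clone 1 or either shRNA 162 clone (adjusted p up to 0.128), and FEV without any 1 of the 4 clones compared (up to 0.161). SPIC, a dim row, differed between the hairpins (limma adjusted p = 0.031), but not without either shRNA 159 clone or shRNA 162 clone 1 (up to 0.152). Of 9 regulators of the PEA3 factors, the 1 that rose was DET1 with shRNA 162 (0.42, limma adjusted p = 0.0384) and TRIB2 with shRNA 159 (0.64, limma adjusted p = 0.027). That was 11.1% of the list with each hairpin, beside 9.52% and 2.53% of all rows. TRIB2 was low in the control clones, at a mean of 7.05 beside array medians of 7.37 to 7.44. DET1 was lost without any 1 of the 4 clones compared (adjusted p up to 0.208), and TRIB2 without either control clone or shRNA 159 clone 1 (up to 0.165). DET1 belongs to the ubiquitin ligase that degrades PEA3 factors. The repressor CIC changed by -0.02 and -0.09 with the 2 hairpins, and the ligase COP1 by -0.13 and 0.07, and neither passed. Of 14 genes described as PEA3 factor targets, the matrix proteases MMP14 (-0.55, limma adjusted p = 0.0238) and MMP1 (-0.52, limma adjusted p = 0.0417) fell with shRNA 162. MMP1 was below the array medians, at means of 7.26 in the control and 6.74 in the shRNA 162 clones. PLAU and ICAM1 (0.45, limma adjusted p = 0.0454) rose with shRNA 159. The targets that passed were 14.3% of the list with each hairpin, beside 9.52% and 2.53% of all rows. MMP14 and MMP1 were lost without control clone 2 or either shRNA 162 clone (adjusted p up to 0.148 and 0.205), and ICAM1 without any 1 of the 6 clones (0.0809 to 0.221).

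**Figure D4:**
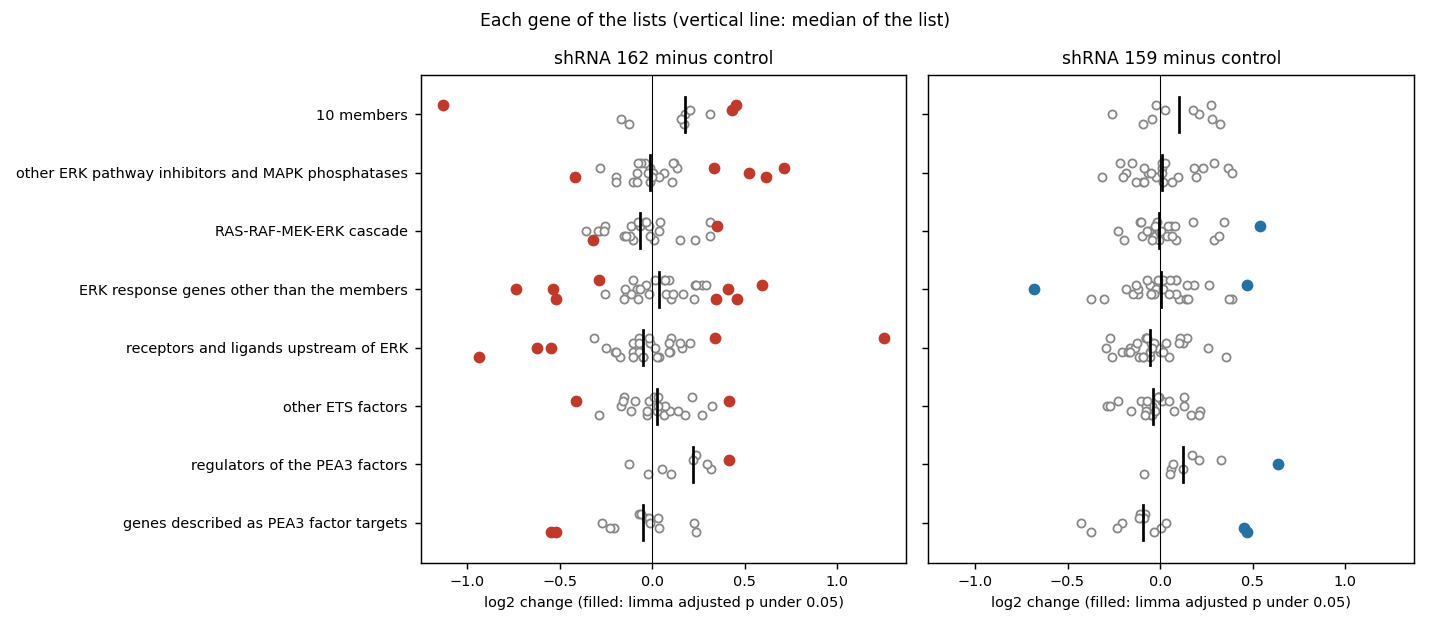
Log2 change from control (horizontal axis) of each gene of the 10 members and of the 7 lists with shRNA 162 (left) and shRNA 159 (right), as differences of means of 2 clones; filled points passed at a limma adjusted p under 0.05 and vertical lines are list medians. With shRNA 162 filled points lie on both sides of 0 in 5 of the 7 lists. NRG1 at 1.25 and FGF1 at -0.93 are the farthest out of the list genes, and the member ETV5 is at -1.13.

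The rows most like a member over the 6 arrays were found for the 3 members with the smallest limma F-test p. For ETV5 they were PRXL2A (Pearson r = 0.999), CCDC50 (0.998) and GDAP1 (0.998), the highest of 3121 rows with a range of at least 0.5. CCDC50 lies on chromosome 3 like ETV5, and changed by -1.05 with shRNA 162 and 0.01 with shRNA 159. PRXL2A on chromosome 10 (-0.56 and -0.03) and GDAP1 on chromosome 8 (-0.55 and -0.02) followed the same order of groups at a smaller size. For ETV4 the closest were KDM5A (0.997), LRRC49 (0.995) and SNORA6 (0.995), and for SPRY4 they were THOC5 (0.993), SINHCAF (0.982) and COG2 (0.98). With 6 arrays in 3 groups such values describe the order of the groups, and the arrays share one normalization.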

How the data were processed

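Affymetrix Human Gene 1.0 ST arrays were summarised by the authors to log2 signals with Affymetrix's Exon Array Computational Tool, per the labels. Its settings are not given in the sources used. The base of the logarithm was taken from the values, which ran from 2.29 to 14.65. Array medians lay between 7.37 and 7.44. Arrays give no count depth, and their number limits the precision. The values were used without further scaling. Rows took symbols from the platform's probe table: 19460 had 1, 1754 several and 12083 none, and the 21214 with a symbol were tested.

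One model with 3 groups was fitted to all 6 arrays in R 4.3.3 by limma 3.58.1, using lmFit and eBayes with 3 residual and 5.31 prior degrees of freedom, two-sided, with Benjamini-Hochberg adjustment over the 21214 rows. The fit was tested on simulated data. The members, lists and tests were chosen with earlier results of these data known. A list gene with several rows entered by its brightest row. Named were all members and, per list, up to 4 genes that passed in any of the 4 comparisons with the smallest p for both hairpins; CIC, COP1 and the neighbours named by value were chosen after their values were seen. Alternatives left out single arrays or used the compared arrays alone, brighter rows or all rows, a replicate block, a variance trend or quantile normalization. For the average of both hairpins, the hairpin was also a random block, or the 4 shRNA clones formed 1 group. Promoter sequences came from RefSeq (GRCh38.p14). Figures used matplotlib 3.10.9 in Python 3.11.15.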

Additional observations from a re-analysis of the deposited data

Results flagged for a closer look

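The same contrast with control differed between the 2 hairpins for 2 of the 10 genes by the limma test of the difference. Of all rows, 8.65% passed that test. ETV5 was 1.11 higher with shRNA 159 than with shRNA 162 (log2; adjusted p = 0.000291), with both shRNA 159 clones above both shRNA 162 clones. SPRY1 differed by -0.44 (adjusted p = 0.0264), with both shRNA 159 clones below both shRNA 162 clones. That SPRY1 call was lost with all rows tested (limma adjusted p = 0.102). Groups of 2 clones are too small for a test of outlying samples.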

How the results depend on the processing

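The direction of every called change of a member held in all fits run, and the call of ETV5 with shRNA 162 and between the hairpins was kept in each. The count of members that passed for both hairpins, 3 in the fit described, was 1 with all rows, 1 after quantile normalization, 1 with a replicate block, 0 with the 4 shRNA clones as 1 group, 0 with the hairpin as a random block, and 6 both with the brighter rows and with a variance trend; leaving out single arrays gave 0 to 3. With shRNA 162 the count of 3 became 1 with all rows and 5 both with the brighter rows and with a variance trend (1 to 4 leaving out arrays). With shRNA 159 the count of 0 became 1 with the brighter rows and 2 with a variance trend (0 to 0 leaving out arrays). Between the hairpins the count of 2 became 1 with all rows and 3, with ETV4, both with the brighter rows and with a variance trend (1 to 2 leaving out arrays). Of the 10607 brighter rows, 1992 passed for both hairpins, 3090 with shRNA 162, 946 with shRNA 159 and 2468 between the hairpins. With a variance trend 2265, 3482, 1137 and 3022 of the 21214 rows passed, in the same order. With all rows 226, 691, 111 and 593 of 33297 passed, again in that order. For both hairpins 980 of 21214 rows passed in the fit described, 1014 after quantile normalization and 1011 with a replicate block. That total was 71 with the 4 shRNA clones as 1 group and 27 with the hairpin as a random block. The tests differ in how many rows they adjust over and in the spread they use, and the cause of each change was not tested.

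The replicate block lost the averaged calls of SPRY4 (adjusted p = 0.0531) and ETV4 (0.0514) and changed no other member's call. Same-numbered clones deviated together at -0.052, 0.263 and -0.028 over the 3 pairs of groups, so the numbers were not taken as pairs. Changes that turned sign were near 0 and not called. After quantile normalization SPRY2 with shRNA 159 was -0.013. Leaving out single arrays, changes with shRNA 159 ran from -0.017 to 0.075 for SPRY2, -0.078 to 0.033 for ETV5 (0.0002 without control clone 1), -0.027 to 0.12 for GABPA, -0.015 to 0.008 for HRAS (0.0022 without shRNA 159 clone 1) and -0.19 to 0.12 for MMP14 (0.0076 without shRNA 159 clone 2). SOS1 with shRNA 162 ran from -0.16 to 0.031. For both hairpins SPRY1 ran from -0.11 to 0.027 and SPIC from -0.085 to 0.13. For 1 hairpin against control, or between the hairpins, some leave-one-out fits drop a clone of the group not compared. Those fits equal the fit of the compared arrays alone, so they do not show whether a call rests on a compared clone. The number of arrays limits all of these values.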
